A study of Mus musculus with 4 samples.

Results

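The genes described here are 10 members of the p53 pathway other than the cell cycle inhibitor gene Cdkn1a: Trp53, Mdm2, Mdm4, Ccng1, Phlda3, Trp53inp1, Sesn2, Fas, Aen and Zmat3. They were read in lymphoid-primed multipotent progenitors (LMPPs), early bone marrow cells that can still form myeloid and lymphoid blood lineages. Each probe set whose platform symbol is exactly one of these names was taken, which gave 21 of 45037 probe sets, for 9 of the 10 genes. Trp53, which encodes p53 itself, had no probe set listed under its symbol and was not analysed here. Of the 21 probe sets, 14 reached the expression filter, a mean over all libraries of at least 5.69 on the log2 scale of RMA expression values. These 14 belong to 8 genes, and Fas lay below the filter.

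The arrays came from C57Bl/6 mice aged 6 to 8 weeks, 2 of wild-type genotype and 2 labelled Lyl1-null, a null allele of the basic helix-loop-helix factor Lyl1. Cells were sorted for absent lineage markers, for c-Kit and Sca-1 and for high Flt3. Nothing in the labels tells separate mice from repeat samples of 1 pool, and p-values therefore reflect just the spread among these 4 samples, which may be technical. With 2 arrays per group, their number limits the precision of every value. The design asks which transcripts of these progenitors differ when Lyl1 is missing.

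p53 is a transcription factor that is kept scarce by the ubiquitin ligase Mdm2 and its partner Mdm4, and that accumulates after DNA damage and other stress. It then activates genes that halt the cell cycle, restrain growth signalling or promote cell death, and Mdm2 is among them, which closes a feedback loop. Much of this control acts on the p53 protein, so target transcripts are commonly read as the pathway's output. In blood progenitors p53 limits expansion after damage.

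The libraries did not match their labels equally well. Lyl1 stood at 12.34 and 12.29 in wild type, at 5.14 in the library labelled Lyl1-null 1 and at 10.32 in the library labelled Lyl1-null 2, which goes against its label. The latter also stood apart in sex-linked transcripts. Xist stood at 14.26 there, against 5.81 to 6.30 in the other 3 libraries. Eif2s3y, a gene of the Y chromosome, stood at 8.44 against 10.07 to 10.15, lower but still above the filter. Tested genes 2-fold or more away from another library numbered 518 to 859 for this library, against 42 to 128 among the other 3. Each library labelled Lyl1-null is therefore given separately throughout, and paired values for them follow the order of their labels, Lyl1-null 1 first. Both are set against the same wild-type pair. The sorting and progenitor markers Kit, Cd34 and Flt3 were above the filter in all 4 libraries. Each was lower in both libraries labelled Lyl1-null than in both of wild type, as were 24% of all genes. Kit, the receptor used in the sort, read 10.07 and 10.27 in wild type and 9.56 and 8.97 in the pair labelled Lyl1-null, Cd34 read 12.76 and 12.87 against 12.59 and 11.92, and Flt3 read 11.92 and 12.12 against 11.80 and 11.26. Against the wild-type mean, the library labelled Lyl1-null 1 was at −0.61 for Kit, −0.23 for Cd34 and −0.22 for Flt3. The library labelled Lyl1-null 2 was at −1.20, −0.89 and −0.76 in that order. None of the 3 passed limma's test with both libraries, where 0.00893% of all genes did. Neutrophil markers summed on the linear scale came to a log2 level of 9.04 to 9.47 in wild type and 10.67 to 10.93 in the libraries labelled Lyl1-null, over 8 genes of which 5 passed the filter. T cell markers came to 8.24 to 8.33 and 8.82 to 8.86, over 6 genes, with Cd3d and Cd3g below the filter. The 4 tested differed unequally with both libraries together: Thy1 by 1.30, Cd8a by 0.45, Cd4 by 0.33 and Cd3e by 0.14. The part of neutrophils and T cells in the results below was not tested. In bulk samples fewer cells of a type and less RNA per cell cannot be told apart.

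p53 acts by binding DNA, and the promoter sequences of the members are given first. The RefSeq promoter table of GRCm38.p6 holds 250 bases before to 50 after the start of a gene, and it matched 8 members and Cdkn1a. Each window was searched on both strands for the p53 half-site, a degenerate sequence of 10 bases. It occurred for 4 of these 8 members, Mdm2, Ccng1, Aen and Trp53, against 9.55% of all genes in the table, and in 5 of their 10 windows, against 8.36% of all 32851 windows. The stretches of the measured genes with a match, and that of Cdkn1a for comparison, are printed below 5′ to 3′ on the gene's strand, with half-sites in capitals.
Mdm2 (chr10:117710915-117710964, minus strand): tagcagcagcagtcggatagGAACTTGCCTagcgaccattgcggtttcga
Ccng1 (chr11:40755442-40755491, minus strand): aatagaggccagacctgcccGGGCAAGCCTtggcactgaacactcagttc
Aen (chr7:78895917-78895966, plus strand): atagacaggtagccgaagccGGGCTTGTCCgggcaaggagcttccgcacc
Cdkn1a (chr17:29090886-29090957, plus strand): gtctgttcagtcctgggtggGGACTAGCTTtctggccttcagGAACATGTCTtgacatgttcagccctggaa
Only the Cdkn1a stretch, among the windows of these genes, held 2 half-sites within 13 bases of each other, here 12 bases apart. That arrangement was in 24 of the 32851 windows, 0.0731%. The Aen match lies in 2 windows that overlap, 1 for each of its start sites. Cdkn1a also has a second window, at chr17:29093519-29093818, and that window held no half-site. The windows of Mdm4, Phlda3, Sesn2 and Fas held no half-site, which says only that these letters are not in these windows. The E-box letters CAGATG, a form bound by factors of the Lyl1 and Tal1 family with their E protein partners, were searched on both strands too. Among the members they occurred in the window of Sesn2 alone, against 19.2% of all genes. A match is a description of the letters and not a measured binding site.

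As a whole the p53 pathway genes did not move in one direction. Of the 8 genes tested, each read from its brightest probe set, 2 had a positive difference between the libraries labelled Lyl1-null and wild type, Phlda3 and Aen, and 6 had a negative one, where all genes had 4823 positive and 6373 negative. The median difference was −0.056 on the log2 scale, against −0.047 over all 11196 genes tested. It was −0.11 in the library labelled Lyl1-null 1, where all genes had −0.0086, and 0.039 in the library labelled Lyl1-null 2, where all genes had −0.078. The sign of the 2-library median turned with quantile normalization (0.042, with 5 genes positive and 3 negative) and with the mean of each gene's probe sets (0.11). Quantile normalization moved the median of all genes to 0.040 as well, with 6267 positive and 4924 negative. None of the 8 genes passed limma's test at an adjusted p of 0.05 with both libraries, where 1 gene of 11196 did (0.00893%). At an unadjusted p under 0.05 there were 2, Mdm4 and Phlda3, against 6.84% of all genes. The groups did not overlap for 3 of the 8, against 42.7% of all genes: Phlda3 was higher, as were 18.7% of all genes, and Mdm4 and Zmat3 were lower, as were 24% of all genes. Of the 14 probe sets above the filter, 0 passed limma's test with both libraries (0.00888% of 22519 did), 0 in the library labelled Lyl1-null 1 (0.0488%), 0 between both libraries labelled Lyl1-null (0.0444%), and 2 in the library labelled Lyl1-null 2 (10.1%), 1 each of Mdm4 and Phlda3. The Mdm4 probe set that passed, 1458223_at, was higher there, with wild-type values of 5.57 and 5.54, below the filter. The brightest Mdm4 probe set was lower in the same library (−0.63).

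**Figure D1:**
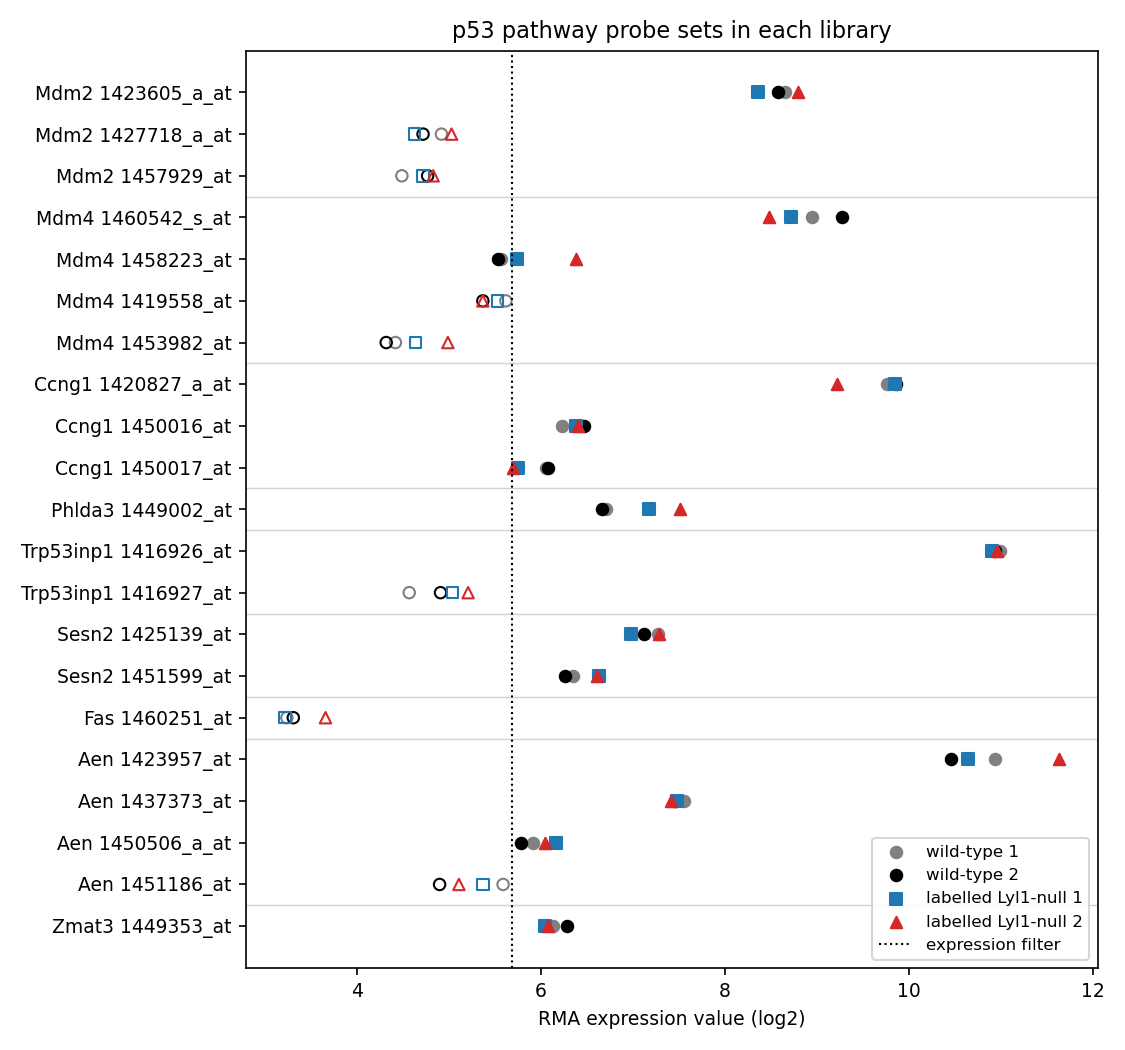
RMA expression value (log2, horizontal axis) of each of the 21 probe sets in each of the 4 libraries; filled symbols are probe sets above the filter (dotted line) and open symbols those below it. For most probe sets the 4 libraries lie close together; Phlda3 and Aen 1423957_at show the library labelled Lyl1-null 2 farthest to the right, at 7.51 and 11.63.

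Read separately, the libraries labelled Lyl1-null gave different counts. In the library labelled Lyl1-null 1 none of the 8 genes passed limma's test (0.196% of all genes did, 0.0893% with higher values), and 1 had an unadjusted p under 0.05, Phlda3, against 6.74% of all genes. In the library labelled Lyl1-null 2, Phlda3 and Aen passed with higher values, where 14.8% of all genes passed, 3.94% higher and 10.8% lower. At an unadjusted p under 0.05 there were 4 members in that library, Mdm4, Ccng1, Phlda3 and Aen, against 36.1% of all genes. The difference between both libraries labelled Lyl1-null was tested in the same fit, and none of the 8 genes passed, against 2.97% of all genes. There, 2 members had an unadjusted p under 0.05, Ccng1 and Aen, against 24.2% of all genes. In these comparisons the spread comes from the wild-type pair, so each lone library is assumed to vary like wild type.

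**Figure D2:**
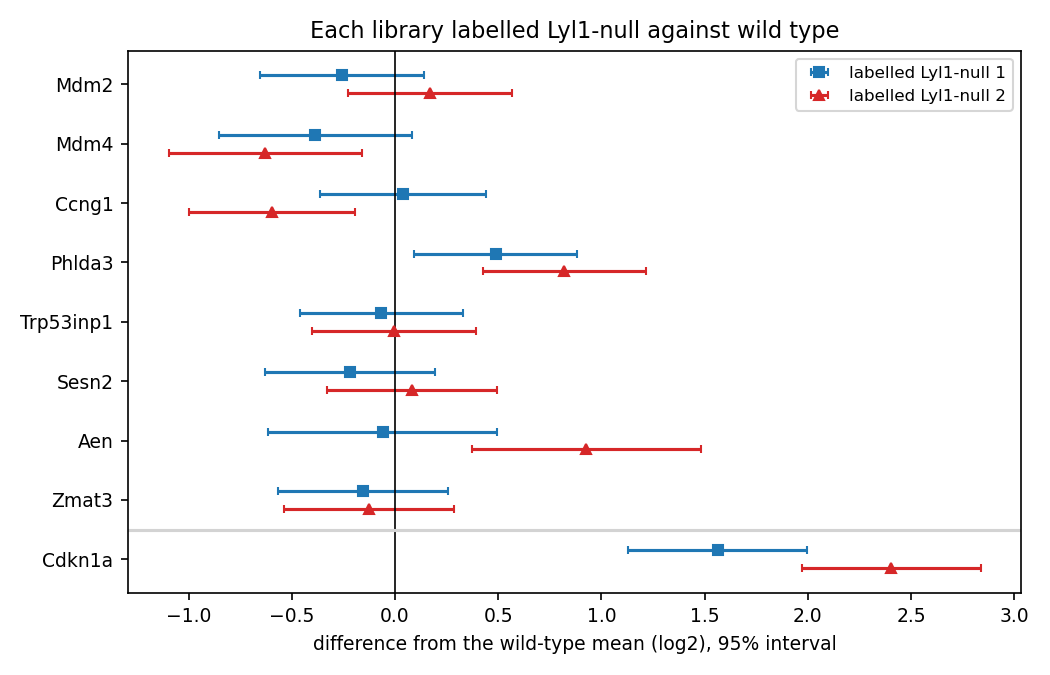
Difference of each library labelled Lyl1-null from the wild-type mean (log2, horizontal axis) for the 8 tested p53 pathway genes and, below the line, Cdkn1a; bars are 95% intervals from limma. Phlda3 lies to the right of 0 in both libraries (0.49 and 0.82), Aen in the library labelled Lyl1-null 2 alone (0.93), and Cdkn1a lies at 1.56 and 2.40.

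The regulators of p53 were read from Mdm2 and Mdm4. Mdm2, the ligase that marks p53 for degradation and is itself a p53 target, read 8.65 and 8.58 in wild type, 8.36 in the library labelled Lyl1-null 1 and 8.79 in the library labelled Lyl1-null 2 (1423605_a_at). The libraries labelled Lyl1-null thus lay on either side of wild type. The difference of both from wild type was −0.043 (SE 0.20, 95% interval −0.55 to 0.46, adjusted p = 0.947 in limma), and it was positive with quantile normalization (0.092). That interval leaves out a 2-fold change in either direction. Taken alone, the library labelled Lyl1-null 1 was at −0.26 (SE 0.17, adjusted p = 0.846) and the library labelled Lyl1-null 2 at 0.17 (adjusted p = 0.491). The other Mdm2 probe sets, 1427718_a_at and 1457929_at, were below the filter at 4.49 to 5.03 in all 4 libraries.

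Mdm4, which blocks the activating region of p53 and pairs with Mdm2, gave opposite readings from its probe sets. The brightest, 1460542_s_at, read 8.95 and 9.27 in wild type, 8.72 in the library labelled Lyl1-null 1 and 8.48 in the library labelled Lyl1-null 2. Both libraries labelled Lyl1-null were below both wild-type libraries, by less in the first of them. The difference was −0.51 (SE 0.20, 95% interval −0.99 to −0.020, adjusted p = 0.644 in limma), with −0.39 and −0.63 in the libraries labelled Lyl1-null 1 and Lyl1-null 2 (adjusted p = 0.803 and 0.0736). With each array centred on its median, the latter passed (−0.75, adjusted p = 0.0247).

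The second Mdm4 probe set above the filter, 1458223_at, read 5.57 and 5.54 in wild type, 5.74 in the library labelled Lyl1-null 1 and 6.38 in the library labelled Lyl1-null 2. Here both libraries labelled Lyl1-null were above wild type, the opposite of the brighter probe set. The wild-type values of this probe set lay below the filter of 5.69. Over all probe sets, the library labelled Lyl1-null 2 had a median of 5.76 and a standard deviation of 2.34. The other libraries had medians of 5.65 to 5.68 and standard deviations of 2.44 to 2.48. The part of this narrower spread in the opposite readings was not tested. In a fit over all 22519 probe sets above the filter, the library labelled Lyl1-null 2 differed by 0.82 (SE 0.16, adjusted p = 0.0425 in limma), where 1.75% of probe sets passed higher, and the library labelled Lyl1-null 1 by 0.18 (adjusted p = 0.865). Both libraries together gave 0.50 (SE 0.25, adjusted p = 0.611). Of the probe sets below the filter, 1453982_at read 4.42 and 4.32 in wild type and 4.64 and 4.99 in the pair labelled Lyl1-null, and 1419558_at lay between 5.37 and 5.62 in all 4. The mean of the 4 Mdm4 probe sets differed by 0.10. The transcripts of Mdm4 that each probe set detects were not analysed here.

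The genes of growth and stress control came next, and among the 8 members Phlda3 had the largest difference with both libraries together and in the library labelled Lyl1-null 1, while Aen had it in the library labelled Lyl1-null 2. Phlda3 encodes a small pleckstrin homology protein that is known to oppose Akt signalling and is a direct p53 target. Its single probe set (1449002_at) read 6.71 and 6.67 in wild type, 7.18 in the library labelled Lyl1-null 1 and 7.51 in the library labelled Lyl1-null 2. Both libraries labelled Lyl1-null were above both wild-type libraries by more than either pair differed within itself. The difference was 0.65 (SE 0.18, 95% interval 0.19 to 1.11) or 1.57-fold, and it did not pass over all genes (adjusted p = 0.644 in limma). It was 0.49 in the library labelled Lyl1-null 1 (SE 0.16, adjusted p = 0.630) or 1.40-fold. Phlda3 rose in the library labelled Lyl1-null 2, by 0.82 (SE 0.16, adjusted p = 0.0272) or 1.77-fold. That difference was 0.70 with median centring and 0.99 with quantile normalization. The mean of probe sets could not change it, since the gene has 1 probe set. The call was lost without the expression filter. The gene was below the 70th percentile filter.

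Ccng1 encodes cyclin G1, a p53 target that recruits a phosphatase to Mdm2. Its brightest probe set (1420827_a_at) read 9.76 and 9.86 in wild type, 9.85 in the library labelled Lyl1-null 1 and 9.22 in the library labelled Lyl1-null 2. The first of these lay between the wild-type libraries and the second below them. The differences were 0.038 (SE 0.17, adjusted p = 0.986 in limma) and −0.60 (SE 0.17, adjusted p = 0.0588), and −0.28 for both together (SE 0.25, adjusted p = 0.696). With each array centred on its median, the library labelled Lyl1-null 2 passed with a lower value (−0.71, adjusted p = 0.0198). The difference between both libraries labelled Lyl1-null was −0.63 (SE 0.19, unadjusted p = 0.0149, adjusted p = 0.123 in limma).

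The other Ccng1 probe sets told the libraries apart differently. In 1450017_at, wild type read 6.06 and 6.08, and the libraries labelled Lyl1-null 1 and Lyl1-null 2 read 5.75 and 5.70. Both of these were below wild type, with a difference of −0.35 (SE 0.16, adjusted p = 0.611 in limma over probe sets). In 1450016_at the 4 libraries lay between 6.23 and 6.47 and the groups overlapped. The probe sets of this gene thus differed on whether the library labelled Lyl1-null 1 was lower than wild type.

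Trp53inp1, a nuclear protein that promotes p53 activity and autophagy, was the steadiest member. It read 10.99 and 10.94 in wild type, 10.90 in the library labelled Lyl1-null 1 and 10.96 in the library labelled Lyl1-null 2 (1416926_at). All 4 values lay within 0.10 of each other, and the groups overlapped. The difference was −0.035 (SE 0.16, 95% interval −0.43 to 0.36, adjusted p = 0.943 in limma), and it was 0.017 with quantile normalization. The second probe set, 1416927_at, was below the filter, with 4.57 and 4.91 in wild type and 5.04 and 5.21 in the pair labelled Lyl1-null.

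Sesn2 encodes sestrin 2, a stress protein that restrains the growth kinase complex mTORC1. Its brighter probe set (1425139_at) read 7.27 and 7.12 in wild type, 6.98 in the library labelled Lyl1-null 1 and 7.28 in the library labelled Lyl1-null 2, so that the groups overlapped. The difference was −0.068 (SE 0.18, 95% interval −0.53 to 0.39, adjusted p = 0.899 in limma), and it was positive with quantile normalization (0.067). The second probe set (1451599_at) read 6.35 and 6.26 in wild type and 6.63 and 6.61 in the pair labelled Lyl1-null. Both of these lay above wild type, with a difference of 0.31 (SE 0.16, adjusted p = 0.611 in limma over probe sets).

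Of the genes tied to cell death, Aen encodes an apoptosis-enhancing nuclease that p53 induces. Its brightest probe set (1423957_at) read 10.94 and 10.46 in wild type, 10.64 in the library labelled Lyl1-null 1 and 11.63 in the library labelled Lyl1-null 2. The first of these lay between the wild-type libraries, which themselves differed by 0.48, and the second stood above all the others. Aen rose in the library labelled Lyl1-null 2, by 0.93 (SE 0.23, adjusted p = 0.0448 in limma) or 1.90-fold. In the library labelled Lyl1-null 1 the difference was −0.060 (adjusted p = 0.984), and both together gave 0.43 (SE 0.36, 95% interval −0.48 to 1.34, adjusted p = 0.686).

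The Aen call depended on its probe set and on the set of features tested. Adjusted over probe sets, its adjusted p in the library labelled Lyl1-null 2 was 0.0672, and without the filter it was 0.0956. The second probe set (1437373_at) read 7.56 and 7.46 in wild type and 7.48 and 7.42 in the pair labelled Lyl1-null, with the library labelled Lyl1-null 2 lowest. The probe set 1450506_a_at read 5.92 and 5.79 in wild type and 6.17 and 6.05 in the pair labelled Lyl1-null. There both libraries labelled Lyl1-null were higher, with a difference of 0.25 (SE 0.17, adjusted p = 0.621 in limma over probe sets). The probe set 1451186_at was below the filter. With the mean of the probe sets the library labelled Lyl1-null 2 was at 0.22 (adjusted p = 0.427). The difference between both libraries labelled Lyl1-null in 1423957_at was 0.99 (SE 0.27, adjusted p = 0.0989), and it passed with quantile normalization (adjusted p = 0.0388).

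Zmat3 encodes a zinc finger protein that binds RNA and is a p53 target. It read 6.13 and 6.28 in wild type, 6.05 in the library labelled Lyl1-null 1 and 6.08 in the library labelled Lyl1-null 2 (1449353_at). The groups did not overlap, yet their nearest values were 0.05 apart. The difference was −0.14 (SE 0.16, 95% interval −0.54 to 0.26, adjusted p = 0.750 in limma).

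Fas, the cell surface death receptor of lymphocytes, was dim in all libraries. Its probe set (1460251_at) read 3.24 and 3.31 in wild type, 3.22 in the library labelled Lyl1-null 1 and 3.66 in the library labelled Lyl1-null 2, all below the filter. It was not tested, and no fold is given at this level.

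**Figure D3:**
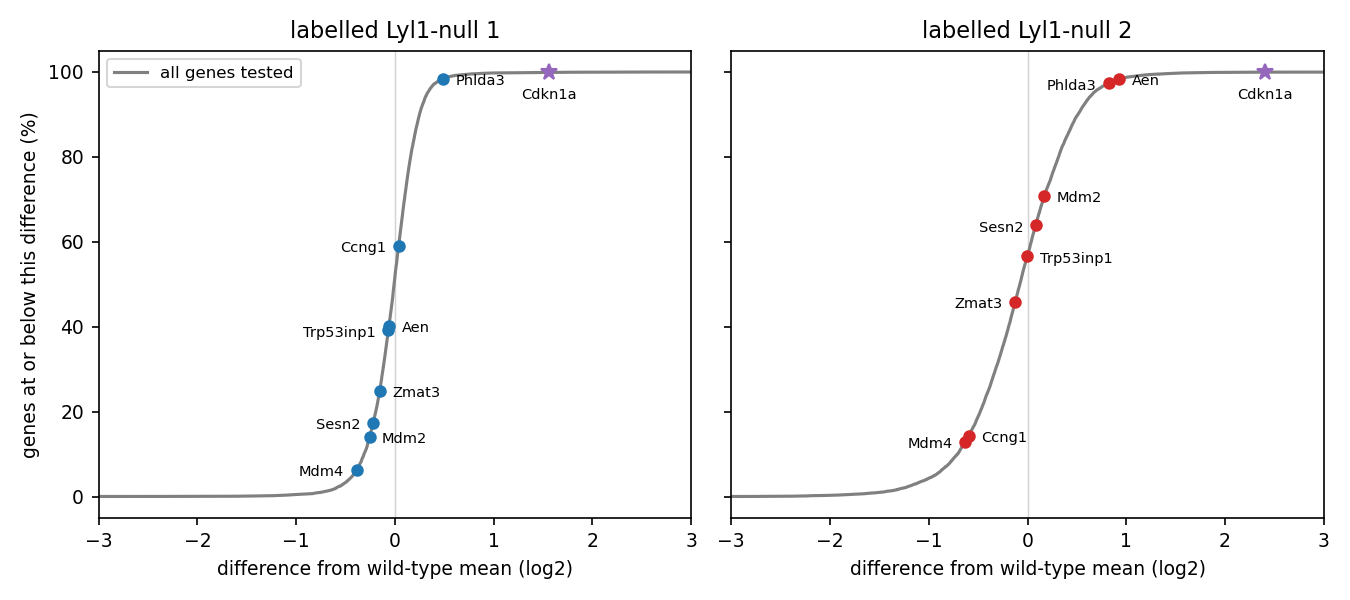
Cumulative share of the 11196 tested genes (%, vertical axis) by their difference from the wild-type mean (log2, horizontal axis, drawn from −3 to 3), for each library labelled Lyl1-null; points are the p53 pathway genes and the star is Cdkn1a. The curve is wider in the library labelled Lyl1-null 2, and the members spread along both curves, with Phlda3 near the upper end of each and Aen near the upper end in the library labelled Lyl1-null 2 alone.

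Set against all tested genes, the members spread widely. In the library labelled Lyl1-null 1 they ranged from the 6.27th percentile of differences for Mdm4 to the 98.5th for Phlda3, and in the library labelled Lyl1-null 2 from the 12.9th for Mdm4 to the 98.3rd for Aen, with Phlda3 at the 97.3rd. The median size of a difference, regardless of sign, was 0.19 for the members and 0.14 for all genes in the library labelled Lyl1-null 1, and 0.38 and 0.32 in the library labelled Lyl1-null 2.

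Cdkn1a, the p53 target that encodes the cell cycle inhibitor p21, differed by more than any of the 8 members. Its brighter probe set (1424638_at) read 9.51 and 9.28 in wild type, 10.96 in the library labelled Lyl1-null 1 and 11.80 in the library labelled Lyl1-null 2. The rise was 1.56 (SE 0.18, adjusted p = 0.0456 in limma) in the first and 2.40 (adjusted p = 0.00433) in the second, and neither passed without the filter (adjusted p = 0.353 and 0.0521). Its second probe set (1421679_a_at) read 7.99 and 8.14 in wild type, 9.65 in the library labelled Lyl1-null 1 and 7.96 in the library labelled Lyl1-null 2, which was not above wild type there.

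Other p53 targets, a list of 30 genes that includes Cdkn1a, were read in the same way. Of 22 tested, 5 were positive and 17 negative, where all genes had 4823 and 6373. With quantile normalization the list had 9 and 13 and all genes had 6267 and 4924. The median was −0.13 against −0.047 over all genes. None passed limma's test with both libraries, and 5 had an unadjusted p under 0.05, against 6.84% of all genes. The medians were −0.034 and −0.24 in the libraries labelled Lyl1-null 1 and Lyl1-null 2, where all genes had −0.0086 and −0.078. In the library labelled Lyl1-null 1 the largest difference of the list was that of Cdkn1a, 1.56. Cdkn1a also rose in the library labelled Lyl1-null 2, where Tob1, an antiproliferative protein, and Sesn1, the sestrin relative of Sesn2, fell. Over all genes 3.94% rose and 10.8% fell in that library. Tob1 read 6.53 and 6.67 in wild type and 6.00 and 5.49 in the pair labelled Lyl1-null, and it fell by 1.11 in the latter (adjusted p = 0.0147 in limma). Sesn1 read 12.16 and 12.48 in wild type and 11.75 and 11.55 in the pair labelled Lyl1-null, and it fell by 0.77 in the latter (adjusted p = 0.0464 in limma). Of the genes of mitochondrial cell death in this list, Bbc3, which encodes Puma, differed by −0.13 (adjusted p = 0.797 in limma) and Apaf1, the apoptosome scaffold, by −0.34 (adjusted p = 0.644).

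Regulators and cofactors of p53, a list of 24 genes, had 5 positive and 15 negative differences among 20 tested (8 and 12 with quantile normalization) with a median of −0.17 against −0.047 over all genes. All genes had 4823 positive and 6373 negative, and 6267 and 4924 with quantile normalization. None passed limma's test with both libraries, where 1 had an unadjusted p under 0.05, Hipk2, against 6.84% of all genes. None passed in the library labelled Lyl1-null 1 either, where Trp53bp2 (−0.54) and Rchy1 (−0.49) had an unadjusted p under 0.05, against 6.74% of all genes. There were 5 that passed in the library labelled Lyl1-null 2, where 14.8% of all genes did, 3.94% higher and 10.8% lower: Chek2, a checkpoint kinase of the DNA damage response (0.94), and the acetyltransferase gene Crebbp (1.13) were higher, and the damage kinase gene Atr (−0.77), the p53 kinase gene Hipk2 (−0.68) and Rpl11, a ribosomal protein that binds Mdm2 (−0.63), were lower. Genes repressed through p21 and the DREAM complex, a set of mitotic and replication genes, had 4 positive and 5 negative differences among 9 tested, with a median of −0.026 that turned with quantile normalization (0.11). In limma 0 of the 9 passed with both libraries or in either single library. At an unadjusted p under 0.05 there was 1, Plk1 in the library labelled Lyl1-null 2, against 36.1% of all genes. The smallest p-values with both libraries were those of Cdc25c, a phosphatase of mitotic entry (−0.28, adjusted p = 0.667 in limma), and Birc5, which encodes survivin (−0.22, adjusted p = 0.746). Plk1, which encodes a mitotic kinase, read 10.71 and 10.17 in wild type and 10.52 and 9.85 in the pair labelled Lyl1-null.

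**Figure D4:**
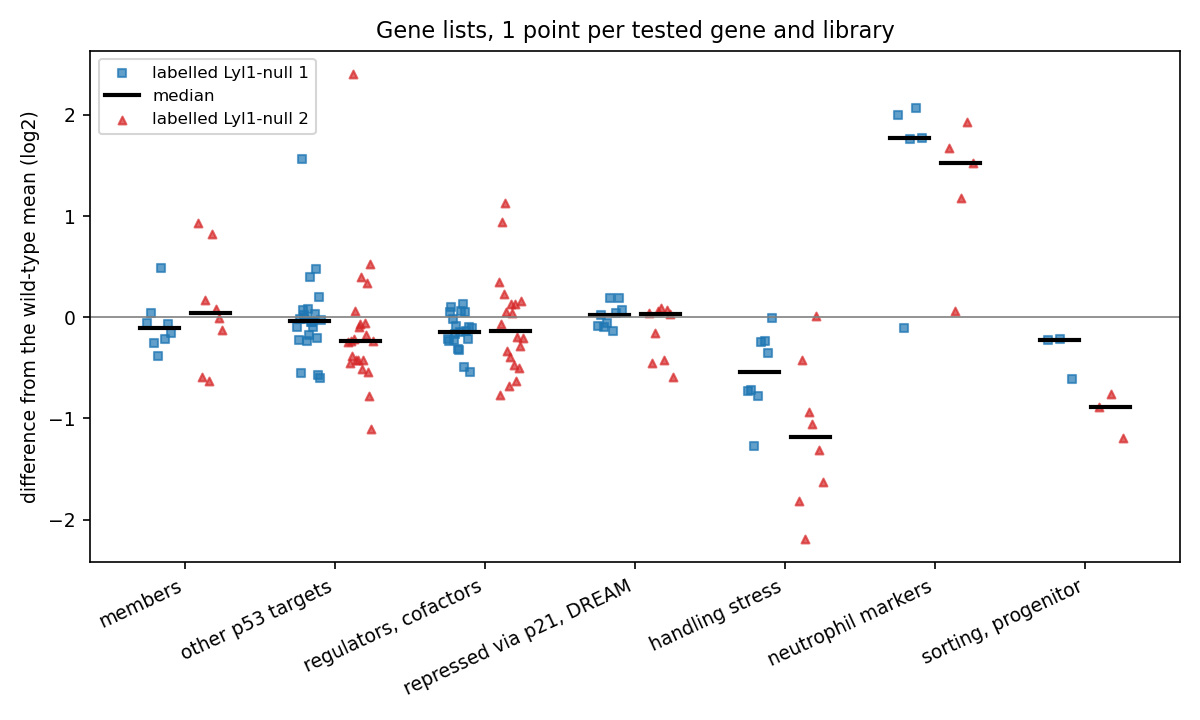
Difference from the wild-type mean (log2, vertical axis) of each tested gene in each gene list, with squares for the library labelled Lyl1-null 1, triangles for the library labelled Lyl1-null 2 and black bars for the median. The members' medians lie at −0.11 and 0.039, while the handling stress genes have medians of −0.54 and −1.18 and the neutrophil markers 1.77 and 1.52.

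Other measures moved between the same libraries. Genes of the handling stress response, such as Fos and Dusp1, had 8 of 8 negative differences and a median of −0.83, with −0.54 in the library labelled Lyl1-null 1 and −1.18 in the library labelled Lyl1-null 2. Fos read 12.58 and 10.86 in wild type and 10.44 and 9.53 in the pair labelled Lyl1-null, so the wild-type libraries differed from each other too. None of these 8 passed limma's test with both libraries, and 2 had an unadjusted p under 0.05, against 6.84% of all genes. In the library labelled Lyl1-null 2, Dusp1, Jun, Ier2 and Junb passed with lower values, 4 of 8 where 10.8% of all genes did. The sorting and progenitor markers Kit, Cd34 and Flt3 were lower there too. Of the neutrophil markers, 4 of 5 tested were positive, and Ngp read 7.05 and 6.55 in wild type and 8.87 and 8.73 in the pair labelled Lyl1-null. Ngp, S100a8 and Ltf rose in both libraries labelled Lyl1-null, each read alone against wild type, and Camp in the library labelled Lyl1-null 2. The 4 T cell markers tested were higher in both libraries labelled Lyl1-null than in both of wild type, as were 18.7% of all genes. Thy1 differed by 1.14, Cd8a by 0.73, Cd4 by 0.41 and Cd3e by 0.17 in the library labelled Lyl1-null 2. Pf4, a platelet chemokine, was lower by 1.18 in that library, among 5 markers of erythroid cells and megakaryocytes. Of these 5, 3 were higher and 2 lower than the wild-type mean there, with a median of 0.27. With both libraries together, 1 was positive and 4 were negative. No tested marker of B cells, of macrophages and dendritic cells or of stroma and endothelium, 3 of each, passed with both libraries or in either one; at an unadjusted p under 0.05 with both there was 1, of the macrophage and dendritic list. Summed on the linear scale, the 5 stroma and endothelium markers came to a log2 level of 7.80 and 9.33 in wild type. The pair labelled Lyl1-null lay between, at 7.92 and 8.69. The wild-type libraries thus differed widely for this list, which limits any call there. With both libraries together, the 3 sorting and progenitor markers stayed negative and the 4 T cell markers positive under quantile normalization and median centring. The part of these genes' sources in the values of Phlda3 and Aen was not tested.

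Mdm4 and Phlda3 lie on chromosome 1, in the order of genes that also holds Ctse, Nav1 and Cxcr4, genes with some of the largest differences in these libraries. In the gene order of assembly GRCm38.p6, 1 tested gene lies between Phlda3 and Nav1, and 13 lie between Mdm4 and Ctse. Nav1, a microtubule-associated protein, read 6.35 and 6.58 in wild type and 9.04 and 8.83 in the pair labelled Lyl1-null. Of the 50 tested neighbours of Phlda3, 25 on each side, 22 were positive and 28 negative, with a median of −0.054, and 14% had an unadjusted p under 0.05 against 6.84% of all genes. The 50 neighbours of Mdm4, of which 25 are shared with those of Phlda3, had 23 positive and 27 negative differences and 14% as well. The neighbours of the other 6 tested members, on chromosomes 3, 4, 7, 10 and 11, had between 2% and 8%. These shares are descriptions without a test, and the part of position in the values of Mdm4 and Phlda3 was not tested.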

How the data were processed

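Expression was measured on 4 arrays, each with 1 biotin-labelled library. The authors deposited log2 values from RMA (background correction, normalization between arrays and probe summary), as the submitters' processing notes name it. The RMA version and any further arrays normalized together are not stated there. The values were used as deposited. Lyl1-null-labelled and wild-type arrays were compared in limma 3.58.1 under R 4.3.3 (lmFit, eBayes, two-sided, Benjamini-Hochberg at 0.05 over all features tested). A gene's brightest probe set stood for it, and the filter kept means of 5.69 or more (the median over probe sets), 11196 of 18193 genes. All 22519 probe sets above it were fitted as well, and each library labelled Lyl1-null alone in a fit with 3 groups. SE and intervals come from the moderated variance. Symbols come from the platform annotation: 34945 probe sets carry 1 symbol, 932 several and 9160 none, and 34741 matched RefSeq identifiers (GRCm38.p6).

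All 10 members were named, with every probe set. Of each other list, up to 4 genes past the threshold in limma were named, or else the 2 with the smallest p. The check genes Lyl1, Cdkn1a, Xist and Eif2s3y were added. Outside this rule, the fifth p53 regulator called in 1 library, and Plk1, Bbc3, Apaf1, Trp53bp2, Rchy1, Fos and Nav1, were chosen after their values were seen. Marker lists with no call are given by counts, with a summed level for stroma and endothelium. Members and lists were chosen with earlier results of these data known. The fits were tested on simulated data. Same-numbered libraries deviated oppositely (correlation −0.41 over genes). With 2 libraries per group, and the library labelled Lyl1-null 2 apart from the rest, this value cannot tell whether the numbers pair the samples. The fit as reported did not pair them.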

Additional observations from a re-analysis of the deposited data

How the results depend on the processing

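With both libraries labelled Lyl1-null, 0 of the 8 genes passed in limma under any alternative, with 2 at an unadjusted p under 0.05 in the fit as reported. Phlda3 and Zmat3 kept their sign in all 14 alternatives that gave a value, but many of these could not turn it. Both genes have a single probe set, so averaging probe sets left their differences as they were. Removing the filter and the prior, weight, block and threshold settings left them unchanged too. Averaging probe sets turned Mdm2 (0.038), Mdm4 (0.10), Trp53inp1 (0.18) and Sesn2 (0.12) and moved the members' median to 0.11. Quantile normalization turned Mdm2 (0.092), Trp53inp1 (0.017) and Sesn2 (0.067). With each library left out in turn, Mdm2 ranged from −0.26 to 0.17, Ccng1 from −0.60 to 0.038, Sesn2 from −0.22 to 0.082, Aen from −0.060 to 0.93 and Phlda3 from 0.49 to 0.82. Of these, the lowest values of Mdm2, Sesn2, Aen and Phlda3 and the highest of Ccng1 came without the library labelled Lyl1-null 2, and the opposite ends without the one labelled Lyl1-null 1, where Phlda3 and Aen passed. Sesn2 also turned without wild-type 1 (0.0057). Without each library in turn, the members' median ranged from −0.11 to 0.039, the genes called from 1 to 1652 and the probe sets called from 0 to 2269. The count of genes called was 1, and 4 without the filter, 0 with the mean of probe sets (2 with quantile normalization or median centring), 4 with a trended prior, 5 with array weights and 6 at a threshold of 0.10. The replicate block gave 3 genes and 3 probe sets and changed no member's call; a crossed block, added after the data were seen, gave 1 gene and 2 probe sets. The count of probe sets called was 2, and 1 with the 70th percentile filter or median centring and 10 with array weights. Between both libraries labelled Lyl1-null, 333 genes passed, against 2 without the filter, 528 with the 70th percentile filter, 153 with the mean of probe sets, 853 with quantile normalization and 996 with median centring. Signal near the filter limits Fas and 6 further probe sets. The cause of these changes was not tested.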
